A study of Bos taurus with 60 samples.

Results

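The comparison of shedding phenotypes was made here over 3 regions of the large intestine together, without the rectum. Small RNA libraries of the cecum, the spiral colon and the descending colon were combined, and the level of each miRNA was averaged over these 3 regions of a steer before 5 super-shedders (SS) were compared with 5 non-shedders (NS). The members were the 30 large intestine libraries, chosen by the region in their labels, out of 60 libraries in the series. Of 608 miRNAs in the deposited table, 579 had a count in these libraries and 352 were tested, since they had a level above 1 CPM (counts scaled to a common library total) in at least 3 libraries of any region and phenotype. The choice of libraries did not use the difference between SS and NS. The filter on miRNAs was applied within groups of 1 phenotype, so a miRNA high in 1 phenotype alone could pass.

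All steers were British × Continental feedlot cattle, and no treatment separated the groups. The SS steers (SS274, SS287, SS294, SS299 and SS310) had earlier shed E. coli O157 at a high fecal level, and the NS steers (NS108, NS152, NS165, NS242 and NS745) were pen-mates whose feces were negative for it. The tissue was collected at slaughter, by which time only SS310 still shed at the super-shedder level, so the label records an earlier fecal result. The other SS steers were still positive, but below that level. Whole tissue was ground for RNA, so a lower level may come from fewer cells of a type or from less RNA per cell, which cannot be told apart in bulk samples. The sources used here do not give the ages of the steers.

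A miRNA is a short RNA that guides the silencing complex to messenger RNAs with a matching site, mainly in the 3′ untranslated region, and so lowers the amount of protein made. The gut wall is a mixture whose layers carry their own miRNAs: miR-143 and miR-145 are typical of smooth muscle, miR-192, miR-194, miR-215 and the miR-200 family of the epithelium, and miR-142, miR-150 and miR-223 of blood-derived cells. E. coli O157 colonizes the bovine hindgut without making adult cattle ill, which is why the large intestine is of interest. The recto-anal junction, which the study describes as the proposed main site of colonization, is not among the libraries used here.

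The libraries held 875432 to 19346766 counts (median 3060631), and 279 to 385 miRNAs exceeded 1 CPM in a library. A miRNA with 0 counts could still have a level of up to 3.43 CPM in the smallest library and 0.155 CPM in the largest (3 counts of the total). Summed over the 3 regions of a steer, the totals of NS and SS steers did not differ by an exact two-sided permutation test (p = 0.468). Bta-miR-143 took 52.5% ± 9.83 of the counts of a steer in NS and 43.2% ± 6.43 in SS (SD, n = 5 and 5; exact p = 0.119). Bta-miR-192 took 6.70% ± 1.57 in NS and 9.81% ± 2.25 in SS (exact p = 0.0476, and 0.190 adjusted over the 4 measures compared in this way). Of 4 defining markers of pancreas and liver, which a gut sample should lack, 0 passed the filter on miRNAs. Single libraries still held reads of them. Bta-miR-122 reached 19 reads in a library, and it took 0.000884% of the counts of the SS299 cecum.

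Some libraries stood apart from their labels, and they were not spread evenly over the phenotypes. Bta-miR-196b, encoded in a HOX cluster and expressed toward the tail end of the body axis, was at 176 to 1459 CPM of the library total in 24 large intestine libraries. In the other 6 it was at 0 to 1.40 CPM, which was the level of most small intestine libraries: of 30 small intestine libraries, 25 held 10.6 CPM or less. The 6 libraries low in bta-miR-196b were the NS165 spiral colon, the SS287 descending colon, the SS294 spiral and descending colon, and the SS299 cecum and spiral colon, so 1 was NS and 5 were SS. In turn, 5 small intestine libraries held 158 to 629 CPM of bta-miR-196b, those of the proximal and the distal jejunum of NS152 and SS299 and of the distal jejunum of SS294. Bta-miR-196a, also of a HOX cluster, divided the libraries only in part alike. It was at 0 to 3.55 CPM in the SS287 and SS294 descending colon and the SS299 cecum and spiral colon. The NS165 and SS294 spiral colon held 11.6 and 34.5 CPM of it, beside 29.6 in the NS745 cecum. The NS242 distal jejunum held 194 CPM of bta-miR-196a and 4.80 of bta-miR-196b.

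The seventh library that stood apart was the SS299 descending colon. Its 8 epithelium miRNAs had a mean of 5.12 log2 CPM, against 9.13 to 11.95 in the other 29 libraries, and its red blood cell miRNAs (bta-miR-144, bta-miR-451 and bta-miR-486) a mean of 9.86, against 4.01 to 7.43. Whether these libraries came from the labelled region was not tested. Several results are given with and without them, but not every result that rests on them. These 7 libraries were identified after the values had been seen. An eighth library, the NS108 descending colon, differed from the other libraries of its steer in 3 miRNAs, as described with bta-miR-378b.

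**Figure D1:**
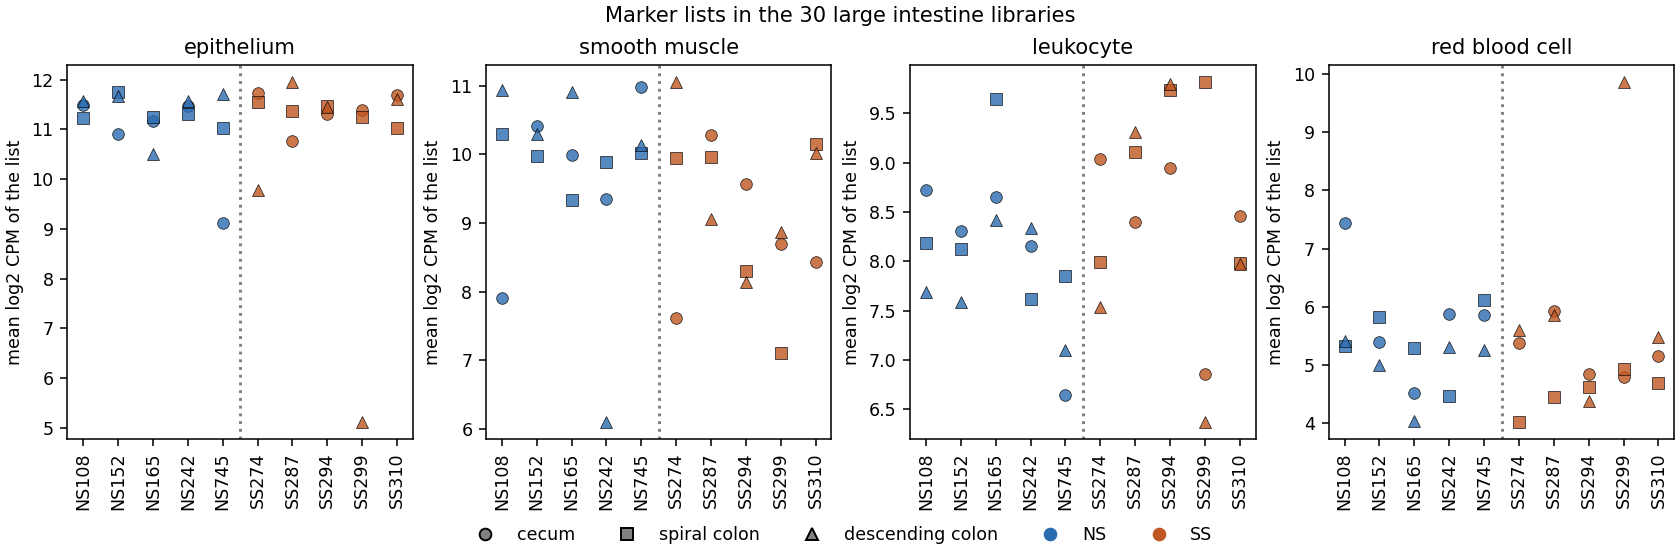
Mean level of 4 marker lists (log2 CPM, scaled by the trimmed mean of M-values) in the 30 large intestine libraries, by steer (x axis), with region as symbol and phenotype as color. The SS299 descending colon is the lowest point of the epithelium panel (5.12) and the highest of the red blood cell panel (9.86).

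The question of the comparison was whether the large intestine of SS steers differed from that of NS steers in any miRNA. Levels were log2 CPM scaled by the trimmed mean of M-values (TMM), so that 1 unit is a doubling, and limma tested the 5 SS against the 5 NS steer means. With limma and a false discovery rate (FDR) of 10%, 0 of 352 miRNAs (0%) passed, and the smallest adjusted p was 0.147. At an unadjusted p under 0.05, 25 miRNAs (7.10%) were found, 11 higher in SS (3.12%) and 14 lower (3.98%). Over all 352 miRNAs the difference had a median of -0.05, with 159 higher (45.2%) and 193 lower (54.8%) in SS. With the library total in place of TMM the median was 0.14, with 229 higher and 123 lower, so the directions of small differences depended on the scaling. The median standard error of a difference was 0.26, and the SD between steers had a median of 0.35 in NS and 0.42 in SS.

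A difference of at least 1 log2 unit was seen in 8 of 352 miRNAs (2.27%), 6 lower (1.70%) and 2 higher (0.568%) in SS. The 6 lower were bta-miR-378b, bta-miR-2284d, bta-miR-2284j, bta-miR-2904, bta-miR-196a and bta-miR-196b, and the 2 higher were bta-miR-212 and bta-miR-1271. Bta-miR-1271 was at 7.10 log2 CPM in SS299, at 3.93 to 6.01 in the other SS steers and at 3.13 to 5.24 in NS. Over the alternative settings tried, its difference ranged from 0.31 to 1.74. Among miRNAs with a mean level above 10 log2 CPM no difference reached 1 unit. The steer means of NS and SS did not overlap for 4 of 352 miRNAs (1.14%), bta-miR-2284d, bta-let-7d, bta-let-7e and bta-miR-320a, all higher in NS.

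**Figure D2:**
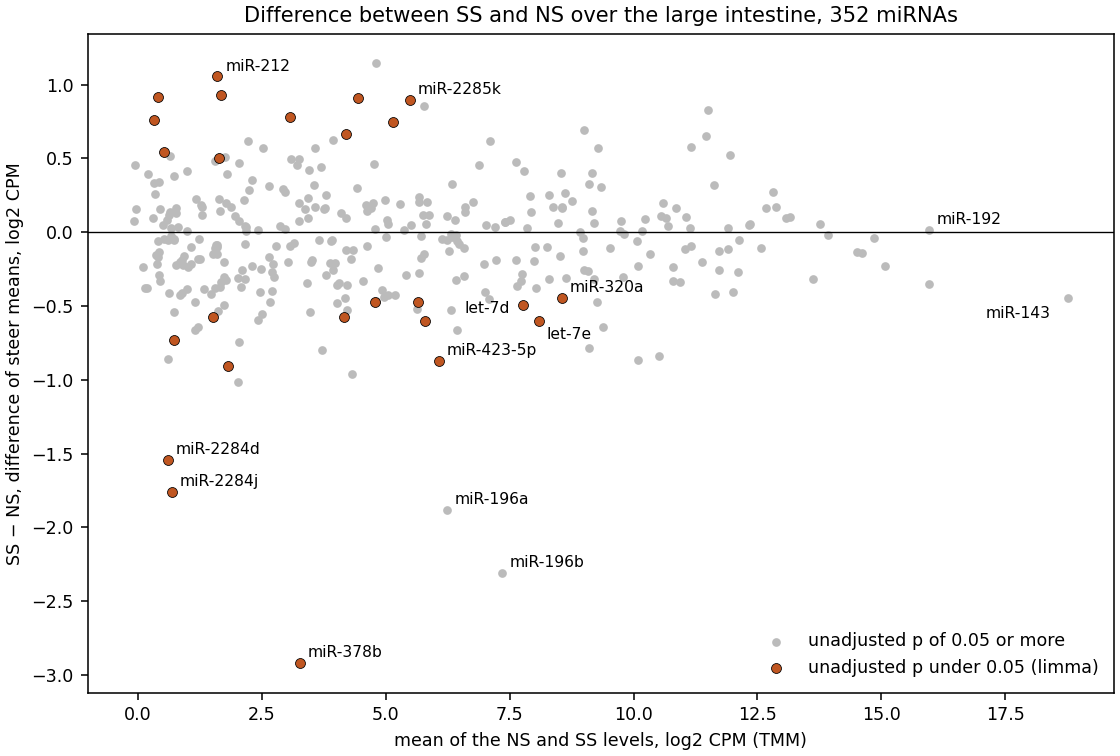
Difference between SS and NS (y axis, log2 CPM, steer means over the 3 regions) against the mean level (x axis, log2 CPM) of the 352 tested miRNAs, with those at an unadjusted p under 0.05 in orange. Bta-miR-378b lies lowest at -2.92, and the abundant miRNAs at the right lie within 1 unit of 0.

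When the counts of the 3 regions were summed for each steer and tested by the quasi-likelihood test of edgeR, 1 of 352 miRNAs (0.284%) passed the FDR of 10%. It was bta-miR-378b, with a log2 fold change of -3.66 (SE 0.65, adjusted p = 0.0327), and 36 miRNAs (10.2%) had an unadjusted p under 0.05. The exact test of edgeR and DESeq2 each called 6 miRNAs (1.70%) on the same sums. Both called bta-miR-378b, bta-miR-2284d, bta-miR-2284j, bta-miR-423-5p and bta-let-7e lower and bta-miR-212 higher in SS. Limma-voom called 0 (28 at an unadjusted p under 0.05, or 7.95%; smallest adjusted p = 0.291). A fit of all 30 libraries by the quasi-likelihood test of edgeR, which counts the 3 libraries of a steer as independent, called 13 miRNAs (3.69%), and limma-voom with the steer as a block called 0. The number of calls therefore depended on the test. In the sums a deep library weighs more than a shallow one, whereas the means weigh the 3 regions equally.

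Bta-miR-378b, a bovine entry of the miR-378 family, was the miRNA with the greatest difference. In the cecum its level was 79.3 CPM (TMM) in NS108, 80.9 in NS152, 79.7 in NS165, 76.9 in NS242 and 3.83 in NS745, and 4.89 in SS274, 4.52 in SS287, 6.41 in SS294, 0.704 in SS299 and 5.09 in SS310. In the spiral colon bta-miR-378b was at 50.3, 38.6, 52.5, 37.2 and 3.18 CPM in the NS steers in the same order, and at 3.12, 2.11, 1.09, 2.40 and 2.69 CPM in the SS steers. In the descending colon it was at 0.734, 56.0, 60.8, 34.9 and 4.16 CPM in the NS steers, and at 3.50, 2.15, 3.17, 7.41 and 1.27 CPM in the SS steers. Thus NS152, NS165 and NS242 were high in every region, all SS steers were low in every region, NS745 was low in every region, and NS108 was high in the cecum and spiral colon but low in the descending colon.

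Averaged over the regions, bta-miR-378b was at 4.13, 5.82, 6.0, 5.55 and 2.10 log2 CPM in NS108, NS152, NS165, NS242 and NS745. The SS steers lay between 1.64 and 2.12 log2 CPM, so that NS745 fell within the SS range. The mean was 4.72 ± 1.64 in NS and 1.80 ± 0.19 in SS (SD, n = 5 and 5), a difference of -2.92 (SE 0.62, 95% interval -4.27 to -1.57), or 7.56-fold lower, with an adjusted p of 0.147 by limma. By region, the difference was -3.39 (cecum), -3.30 (spiral colon) and -2.06 (descending colon), and it was -2.94 in the descending colon without NS108.

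Single steers and libraries decided on which side of the threshold bta-miR-378b fell. Without NS745 its difference was -3.58 with an adjusted p of 0.000227, and without the NS108 descending colon library it was -3.26 with an adjusted p of 0.0866. Without the 6 libraries low in bta-miR-196b the difference was -2.44 (adjusted p = 0.367), and without those and the SS299 descending colon it was -2.61 (0.199). The latter fit holds no library of SS299 and so 4 SS steers, and in both fits the steers concerned were averaged over the regions left. On summed counts the call was lost without NS152, SS274, SS294 or SS310 (adjusted p 0.115 to 0.152), and also without the 6 libraries (0.303) or the 7 (0.146), while the log2 fold change lay between -3.75 and -3.23 in these fits.

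The reads behind the bta-miR-378b levels were few. Summed over the 3 regions, the NS steers had 270, 562, 545, 319 and 33 reads (NS108, NS152, NS165, NS242 and NS745), and the SS steers had 28, 25, 25, 14 and 51 (SS274, SS287, SS294, SS299 and SS310). The deepest library, the descending colon of NS108 with 19346766 counts, held 12 of these reads, whereas the cecum library of the same steer, with 875432 counts, held 109.

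Bta-miR-2284j and bta-miR-2284d, members of a large family of miRNAs known from ruminants, had a similar distribution over the steers at a lower level. Bta-miR-2284j averaged 1.34, 2.5, 2.27, 1.72 and 0.02 log2 CPM in NS108, NS152, NS165, NS242 and NS745, and 0.42, 0.22, -0.56, -0.23 and -0.80 in SS274, SS287, SS294, SS299 and SS310. NS745 again lay inside the SS range. The difference for bta-miR-2284j was -1.76 (SE 0.43, 95% interval -2.70 to -0.82; limma, adjusted p = 0.179), with -1.87 (cecum), -2.01 (spiral colon) and -1.41 (descending colon) by region. Over the other settings tried, it ranged from -3.09 with edgeR on 30 libraries to -0.65 with counts thinned to the smallest library, and on summed counts the log2 fold change of bta-miR-2284j was -3.03. In reads, the NS steers had 24, 52, 35, 17 and 4 of bta-miR-2284j over the 3 regions, and the SS steers had 6, 5, 1, 2 and 0. The 0 of SS310 allows a level of up to 0.133 CPM, whereas the 4 reads of NS745 correspond to 0.364 CPM.

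Bta-miR-2284d averaged 1.13, 1.74, 2.10, 1.90 and 0.02 log2 CPM in the NS steers and -0.03, -0.12, -0.08, -0.46 and -0.15 in the SS steers, in the same order. The groups did not overlap, but NS745 was separated from the highest SS steer by less than 0.1 unit. The difference of bta-miR-2284d was -1.54 (SE 0.35, 95% interval -2.31 to -0.78; limma, adjusted p = 0.147), with regional values of -1.26 (cecum), -1.78 (spiral colon) and -1.59 (descending colon). It ranged from -2.67 with edgeR on 30 libraries to -0.71 with thinned counts, and on summed counts the log2 fold change of bta-miR-2284d was -2.49. The NS steers had 17, 29, 30, 20 and 4 reads of bta-miR-2284d and the SS steers 3, 4, 3, 1 and 8. As a share of these sums the groups overlapped, since NS745 was at 0.364 CPM and SS287 and SS294 were at 0.530 and 0.611. In the descending colon of NS108 it was at 0.184 CPM, against 2.91 (cecum) and 3.38 (spiral colon) in the other libraries of that steer.

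Without NS745, bta-miR-2284d had an adjusted p of 0.00121 and bta-miR-2284j of 0.00471 by limma. Without the NS108 descending colon library the adjusted p was 0.0879 for bta-miR-2284d and 0.109 for bta-miR-2284j. Without the 6 libraries low in bta-miR-196b, bta-miR-2284d differed by -1.48 and bta-miR-2284j by -1.83 (limma, adjusted p = 0.367 for both). Without the 7 libraries that stood apart, the values were -1.29 and -1.68 (adjusted p = 0.236 and 0.199). In the RefSeq gene table of the assembly ARS-UCD2.0, MIR378B and MIR2284J were listed on the same chromosome with 11 listed genes between them, and MIR2284D was not matched there. The study places bta-miR-2284d on the same chromosome as bta-miR-378b and bta-miR-2284j. The levels of these miRNAs are low, and for reads that could be assigned to several near-identical copies of the miR-2284 and miR-378 families the division between entries is uncertain. Bta-miR-2284d and bta-miR-2284j had mean levels of at most 0.650 and 0.456 CPM (TMM) in the SS groups of a region. They passed the filter through NS libraries alone.

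**Figure D3:**
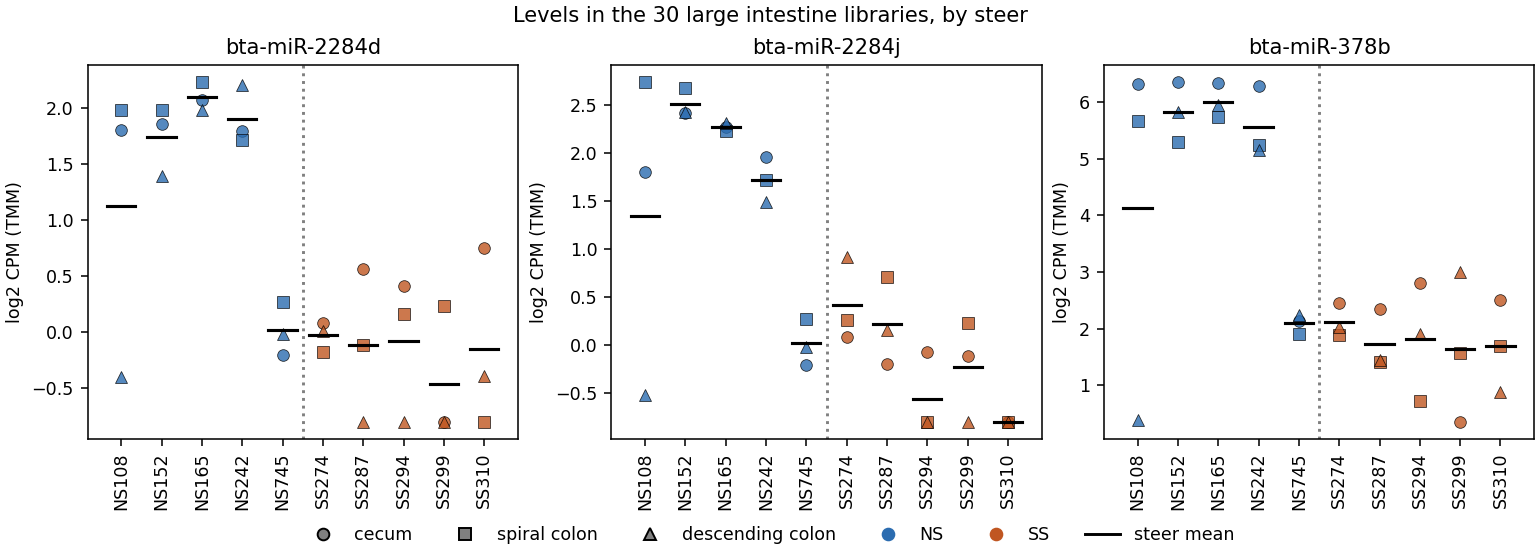
Levels of bta-miR-2284d, bta-miR-2284j and bta-miR-378b (log2 CPM, TMM) in the 30 libraries, by steer, with region as symbol and the steer mean as a bar. In each panel NS745 lies at the level of the SS steers, and the NS108 descending colon (triangle) lies apart from the other libraries of NS108.

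In the small intestine, which the choice of libraries did not use, 4 NS steers were again apart from NS745 and the SS steers for bta-miR-378b and bta-miR-2284j, but not for bta-miR-2284d. Over the duodenum and both parts of the jejunum, bta-miR-378b was at 42.9 to 103 CPM in NS108, NS152, NS165 and NS242, with 50.4 to 69.1 in NS108. In NS745 it was at 3.94 to 4.66 CPM, and in the SS steers at 0.67 to 6.11. For bta-miR-2284j the 4 NS steers ranged from 2.33 to 9.21 CPM, NS745 from 0 to 0.78 and the SS steers from 0 to 1.80. For bta-miR-2284d the 4 NS steers ranged from 1.13 CPM in NS242 to 10.99 in NS165, NS745 from 0.40 to 1.55 and the SS steers from 0 to 1.93, the highest in SS287, so single libraries of NS242 and of the SS steers overlapped. The NS108 descending colon was thus the sole library of NS108, NS152, NS165 and NS242 in which bta-miR-378b was at the SS level, and whether it came from the labelled steer was not tested. When the same fit was made on the 60 libraries, the difference for bta-miR-378b was -2.84 in the large and -3.49 in the small intestine, and they differed by 0.65 (SE 0.34, adjusted p = 0.588). Across all 352 miRNAs, the SS against NS difference in the large intestine less that in the small intestine passed the FDR of 10% in 0 (0%) by limma, with 22 (6.25%) at an unadjusted p under 0.05.

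The other members of the miR-378 family had small differences. Bta-miR-378, the abundant member, was at 11.68 to 12.24 log2 CPM in NS and 11.48 to 12.21 in SS, and its difference was -0.12 (95% interval -0.50 to 0.27; limma, adjusted p = 0.832). The differences were -0.08 for bta-miR-378c (adjusted p = 0.860) and -0.22 for bta-miR-378d (0.822). All 4 members were lower in SS with TMM scaling, but with the library total 2 were higher and 2 lower. The median over the 4 members was -0.17, beside -0.05 for all tested miRNAs.

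Within the miR-2284 and miR-2285 family, most entries lay in the other direction. Of 48 listed entries 18 were tested, of which 15 were higher and 3 lower in SS (median 0.20), and 0 passed the FDR. Over all tested miRNAs 159 of 352 (45.2%) were higher. The mean of the list by steer overlapped between the groups, at 2.47 to 2.87 log2 CPM in NS and 2.58 to 2.94 in SS. Bta-miR-2285k averaged 4.32 to 5.59 log2 CPM in NS and 4.91 to 6.64 in SS, a difference of 0.90 (SE 0.36, adjusted p = 0.580), with values from 0.79 to 1.0 in the 3 regions. Bta-miR-2285aa differed by 0.78 (SE 0.32, adjusted p = 0.608) and bta-miR-2284t-3p by 0.55 (SE 0.20, adjusted p = 0.481). The most abundant entries, bta-miR-2284x and bta-miR-2284y, had counts within 1% of each other in 29 of 30 libraries, so they are best read as 1 measurement. With the 6 libraries low in bta-miR-196b left out, 12 of the 18 were higher and 6 lower.

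After these, the miRNAs with the smallest p were of moderate or high level and all lower in SS. Bta-let-7d, of the let-7 family that represses growth-promoting genes in differentiated tissue, was at 7.96, 7.78, 8.23, 8.09 and 8.0 log2 CPM in NS108, NS152, NS165, NS242 and NS745. In SS274, SS287, SS294, SS299 and SS310 it was at 7.58, 7.33, 7.69, 7.37 and 7.61. All NS steers were above all SS steers, with a difference of -0.50 (SE 0.15, 95% interval -0.81 to -0.18; limma, adjusted p = 0.389). The exact two-sided permutation test over steers gave p = 0.00794 for bta-let-7d, the smallest it can give for 5 against 5 steers. Every miRNA whose groups do not overlap gets this same p, so it restates the separation and adds no evidence to it. This p was not adjusted for the number of miRNAs tested.

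Bta-let-7e was at 8.09, 8.32, 8.88, 8.20 and 8.45 log2 CPM in the NS steers and 7.75, 7.40, 7.86, 7.88 and 8.04 in the SS steers, in the same order. Its difference was -0.60 (SE 0.18; limma, adjusted p = 0.389), and the groups were separated by 8.04 against 8.09. Of the 9 let-7 family members tested, bta-let-7d, bta-let-7e and bta-miR-98 were lower and 6 were higher in SS, with a median of 0.04. The most abundant, bta-let-7a-5p and bta-let-7f, differed by 0.10 and 0.09 with adjusted p of 0.856 and 0.855. Without the 7 libraries that stood apart, 8 of the 9 were lower and 1 was higher.

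Bta-miR-320a, which in human and mouse cells is made without the processing enzyme Drosha, was at 8.53 to 8.98 log2 CPM in NS and 8.11 to 8.44 in SS. The groups did not overlap, and the difference was -0.44 (SE 0.14; limma, adjusted p = 0.410). Bta-miR-423-5p was at 6.47, 5.75, 6.86, 6.30 and 7.17 log2 CPM in the NS steers and 5.31, 5.35, 6.03, 5.86 and 5.64 in the SS steers, so NS152 lay within the SS range. The difference of bta-miR-423-5p was -0.87 (SE 0.27; limma, adjusted p = 0.389).

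The differences of these 4 miRNAs had the same sign in each region, and 3 of them were smallest in the descending colon. Bta-let-7d differed by -0.72 (cecum), -0.51 (spiral colon) and -0.26 (descending colon), bta-let-7e by -0.97, -0.58 and -0.25, and bta-miR-320a by -0.62, -0.46 and -0.25. Bta-miR-423-5p differed by -1.05, -0.71 and -0.85. Averaged over the cecum and spiral colon alone, these 4 passed the FDR of 10% together with bta-miR-378b, bta-miR-2284d and bta-miR-2284j (limma, adjusted p = 0.0772 for each). None of the same miRNAs passed with the other pairs of regions. Their adjusted p by limma was 0.195 to 0.736 without the cecum and 0.545 to 0.685 without the spiral colon. The sign was the same in all 3 regions for 170 of 352 miRNAs (48.3%), and negative in all of them for 99 (28.1%). With the 6 libraries low in bta-miR-196b left out, the differences were -0.62 for bta-let-7d, -0.66 for bta-let-7e, -0.35 for bta-miR-320a and -0.97 for bta-miR-423-5p, with adjusted p from 0.367 to 0.904.

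Further miRNAs lower in SS at an unadjusted p under 0.05 were bta-miR-365-3p, bta-miR-543, bta-miR-655, bta-miR-495, bta-miR-6529a, bta-miR-193a-3p and bta-miR-331-3p, with differences from -0.91 to -0.47 and adjusted p from 0.456 to 0.627. Bta-miR-365-3p was at 5.73 to 6.23 log2 CPM in NS and 4.90 to 5.82 in SS, a difference of -0.60 (SE 0.21). Bta-miR-655 was at 1.62 to 3.14 in NS and 0.85 to 2.23 in SS, a difference of -0.91 (SE 0.33). None of these 7 passed the FDR, and the groups overlapped in each.

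The miRNA with the greatest difference among those higher in SS at that p was bta-miR-212, which is made from the same transcript as miR-132 and is known from neurons and immune cells. Its steer means were 1.85, 0.53, 1.24, 1.11 and 0.64 log2 CPM in NS108, NS152, NS165, NS242 and NS745, and 1.66, 1.23, 2.28, 3.06 and 2.42 in SS274, SS287, SS294, SS299 and SS310. SS294, SS299 and SS310 were above every NS steer, and SS274 and SS287 were within the NS range. The difference of bta-miR-212 was 1.06 (SE 0.36; limma, adjusted p = 0.456), while that of bta-miR-132 was 0.06 (adjusted p = 0.926).

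The highest levels of bta-miR-212 were in libraries that stood apart. They were 22.2 CPM in the SS299 spiral colon, 14.3 in the SS294 descending colon and 13.0 in the SS294 spiral colon, all low in bta-miR-196b, followed by 11.5 in the SS310 cecum. The NS libraries ranged from 0 to 5.10 CPM. Without the 6 libraries low in bta-miR-196b the difference of bta-miR-212 was 0.14, and without the SS299 descending colon as well it was 0.00 (adjusted p = 0.964 and 0.997). On summed counts, where the log2 fold change of bta-miR-212 was 1.78 over all libraries, it was 0.68 and 0.69 in the same settings (adjusted p = 0.945 and 0.783 by the quasi-likelihood test of edgeR). Whether the level of bta-miR-212 followed the region of the tissue was not tested.

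The other 10 miRNAs higher in SS at an unadjusted p under 0.05 had differences from 0.50 to 0.93. Bta-miR-6523a was at 0.27 to 1.72 log2 CPM in NS and 1.70 to 2.77 in SS, with a difference of 0.93 (SE 0.32; limma, adjusted p = 0.456). Bta-miR-1343-3p was at 3.34 to 4.36 in NS and 3.93 to 5.01 in SS, with a difference of 0.66 (SE 0.26, adjusted p = 0.540). The differences of bta-miR-2415-3p, bta-miR-2419-5p, bta-miR-2889, bta-miR-379 and bta-miR-6517 had adjusted p from 0.540 to 0.627, and the rest were the 3 members of the miR-2284 and miR-2285 family given above. Over the alternative settings tried, the difference of bta-miR-6517 ranged from -0.04 to 0.71 and that of bta-miR-2284t-3p from 0.11 to 0.88.

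**Figure D4:**
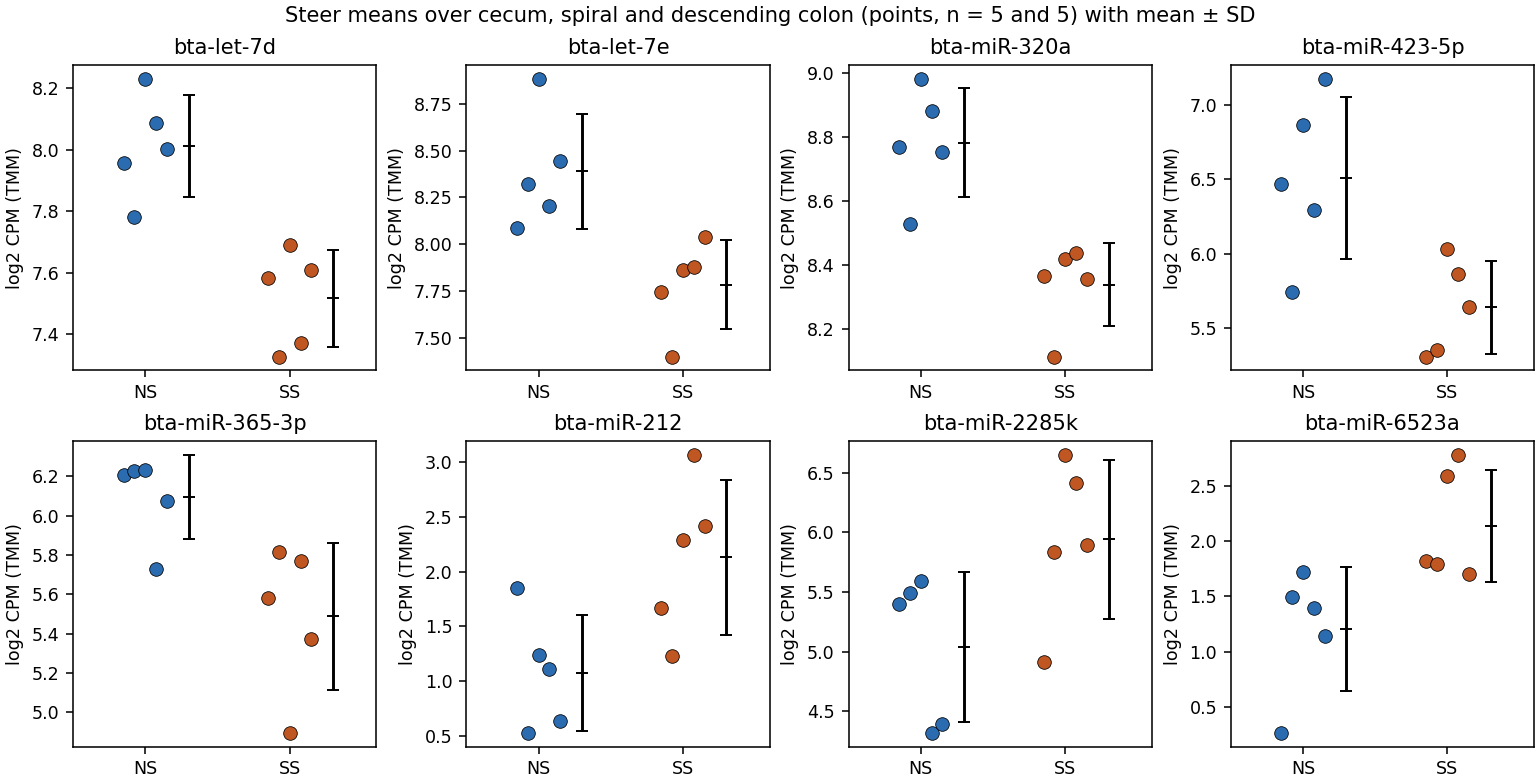
Steer means over the 3 regions (points, log2 CPM, TMM) of 8 miRNAs with small unadjusted p, for 5 NS and 5 SS steers, with mean and SD beside them. The points of bta-let-7d, bta-let-7e and bta-miR-320a do not overlap between the phenotypes, whereas those of bta-miR-212 do.

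The study also names bta-miR-2904 and bta-miR-451 for single regions of the large intestine. Bta-miR-2904 averaged 3.23, 0.81, 2.46, 3.39 and 2.72 log2 CPM in the NS steers and 1.68, 1.32, 0.67, 1.23 and 2.64 in the SS steers. Its difference was -1.01 (SE 0.49; limma, adjusted p = 0.627), with -1.91 (cecum), -0.97 (spiral colon) and -0.16 (descending colon) by region. Bta-miR-451, a red blood cell miRNA, differed by -0.36 (cecum), -1.53 (spiral colon) and 1.36 (descending colon), and by -0.18 on average (SE 0.43, adjusted p = 0.881).

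In the descending colon the SS299 library held 1189 CPM of bta-miR-451, while no NS library there exceeded 86.3. The averaged difference of bta-miR-451 changed sign in several alternatives, so no direction can be given for it. A test of whether the SS against NS difference varied between the 3 regions, with the steer as a block, found 0 of 352 miRNAs (0%) at an FDR of 10% by the quasi-likelihood test of edgeR, and 6 (1.70%) at an unadjusted p under 0.05. Bta-miR-451 was among those 6 (edgeR, unadjusted p = 0.0128).

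The 4 tested miRNAs of the HOX clusters were all lower in SS, with a median of -1.12, beside -0.05 for all tested. Bta-miR-196b averaged 9.42, 9.25, 6.10, 8.98 and 8.72 log2 CPM in NS108, NS152, NS165, NS242 and NS745, and 9.44, 6.46, 3.02, 2.78 and 9.22 in SS274, SS287, SS294, SS299 and SS310. SS274 and SS310 were at the level of the NS steers, and NS165, SS287, SS294 and SS299 were lower, each of which had at least 1 of the libraries low in it. Its difference was -2.31 (SE 1.28; limma, adjusted p = 0.627), and that of bta-miR-196a was -1.88 (SE 0.98, adjusted p = 0.627). The abundant bta-miR-10a and bta-miR-10b differed by -0.23 and -0.35. Without the 6 libraries low in bta-miR-196b, 3 of the 4 were higher in SS with a median of 0.18, and without the 7 libraries the median was 0.38. Those libraries were chosen by a member of this list, so that leaving them out had to raise the SS level, and nothing is read from these values. Bta-miR-196a and bta-miR-196b were singled out after their values were seen.

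Epithelial and smooth muscle miRNAs gave no call. Over all tested miRNAs 25 of 352 (7.10%) had an unadjusted p under 0.05, and 193 (54.8%) were lower in SS. Of the 8 epithelium miRNAs 2 were higher and 6 lower in SS (median -0.24), 0 at an unadjusted p under 0.05. Bta-miR-192, the most abundant, differed by 0.01, and bta-miR-429 by -0.78 (SE 0.42; adjusted p = 0.627). The list averaged 11.2 ± 0.37 log2 CPM in NS steers and 10.9 ± 0.94 in SS steers (n = 5 and 5), with SS299 at 9.25 and the other SS steers at 11.02 to 11.4. Without SS299, 6 of the 8 were higher in SS, with a median of 0.13.

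The 5 smooth muscle miRNAs were all lower in SS (median -0.64), with 0 at an unadjusted p under 0.05. The mean of the list by steer overlapped, at 8.45 to 10.38 log2 CPM in NS and 8.23 to 9.77 in SS. Bta-miR-143 was at 17.94 to 19.55 log2 CPM in NS and 18.11 to 18.90 in SS, a difference of -0.45 (SE 0.34; limma, adjusted p = 0.679). Bta-miR-145, from the same cluster, differed by -0.84 and bta-miR-133a, typical of muscle, by -0.64 (adjusted p = 0.627 for both). All 5 remained lower with the library total as scaling, where the median was -0.42, and without SS299, where it was -0.34. Of the 5, 1 was higher when the 6 libraries low in bta-miR-196b were left out. The list varied widely between libraries of a phenotype, from 6.10 (NS242 descending colon) to 10.99 log2 CPM (NS745 cecum) in NS and from 7.11 (SS299 spiral colon) to 11.05 (SS274 descending colon) in SS.

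The 5 leukocyte miRNAs were all higher in SS (median 0.32), and again 0 had an unadjusted p under 0.05. Over all tested miRNAs 45.2% were higher and 7.10% had such a p. The mean of the list by steer overlapped, at 7.20 to 8.91 log2 CPM in NS and 7.68 to 9.50 in SS. Bta-miR-223, a miRNA of neutrophils and monocytes, was at 6.08, 5.70, 6.44, 4.76 and 3.78 log2 CPM in the NS steers and 5.90, 6.70, 7.59, 5.10 and 5.76 in the SS steers, a difference of 0.86 (SE 0.54; limma, adjusted p = 0.627). Bta-miR-142-5p and bta-miR-142-3p, of blood-derived cells in general, differed by 0.32 and 0.26, bta-miR-150, of lymphocytes, by 0.25, and bta-miR-155, induced on activation of immune cells, by 0.41. When the 6 libraries low in bta-miR-196b were left out, 3 were higher and 2 lower, with a median of 0.03.

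Of 6 miRNAs linked to inflammation 5 were higher in SS (median 0.49), bta-miR-212 among them, while 45.2% of all tested miRNAs were higher. Bta-miR-146a and bta-miR-146b, which damp signalling from Toll-like receptors, differed by 0.57 and 0.62 (adjusted p = 0.627 for both), and bta-miR-147 by -0.96. In bta-miR-147 SS299 was at 1.46 log2 CPM, against 4.19 to 4.67 in the other SS steers and 4.19 to 5.17 in NS, and without SS299 the difference was -0.37. The NS steers ranged from 8.38 to 9.92 log2 CPM for bta-miR-146a and the SS steers from 9.09 to 10.18. Without the 6 libraries low in bta-miR-196b the median was 0.14, with 4 higher and 2 lower.

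The imprinted DLK1-DIO3 cluster, whose miRNAs are made from the maternal chromosome, had the most one-sided count among the longer lists. Of 52 listed miRNAs 35 were tested, of which 32 were lower and 3 higher in SS (median -0.33), while over all tested miRNAs 193 of 352 (54.8%) were lower. The members belong to 1 cluster, so their count is not a count of independent results. The mean of the list by steer overlapped between the groups, at 2.79 to 3.46 log2 CPM in NS and 2.67 to 3.24 in SS. At an unadjusted p under 0.05, bta-miR-543, bta-miR-655 and bta-miR-495 were lower and bta-miR-379 was higher, beside 3.98% lower and 3.12% higher of all tested miRNAs, and 0 passed the FDR. With the library total, 29 were lower and 6 higher (median -0.14, beside 0.14 for all tested), and without the 7 libraries that stood apart 30 were lower and 5 higher. The most abundant members, bta-miR-127 and bta-miR-411a, differed by -0.13 and -0.23 (adjusted p = 0.860 and 0.752).

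The remaining lists showed small or unstable differences. Of 6 miRNAs of the miR-99/100 and miR-125 families 5 were higher in SS (median 0.61). Bta-miR-99b was at 13.7 log2 CPM in SS299 and at 11.2 to 11.9 in the other SS steers, with 10.0 to 11.7 in NS, and without SS299 the median of the list was 0.23. The 6 miR-30 miRNAs were all lower in SS with TMM scaling (median -0.24), but 3 were higher and 3 lower with the library total. The 14 miRNAs of the miR-17-92 clusters were split 7 and 7, and the medians of the miR-29, mesenchyme and endothelium lists were between 0.03 and 0.05. Among the mesenchyme miRNAs, bta-miR-199a-3p and bta-miR-199c had counts within 1% of each other in 29 of 30 libraries, the SS310 descending colon being the exception. The medians were -0.10 for neurons, -0.18 for red blood cells, -0.27 for neuroendocrine cells and 0.13 for the later bovine entries, those from bta-miR-2885 to bta-miR-2904, and without SS299 the medians for neurons and neuroendocrine cells were 0.14 and 0.24.

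**Figure D5:**
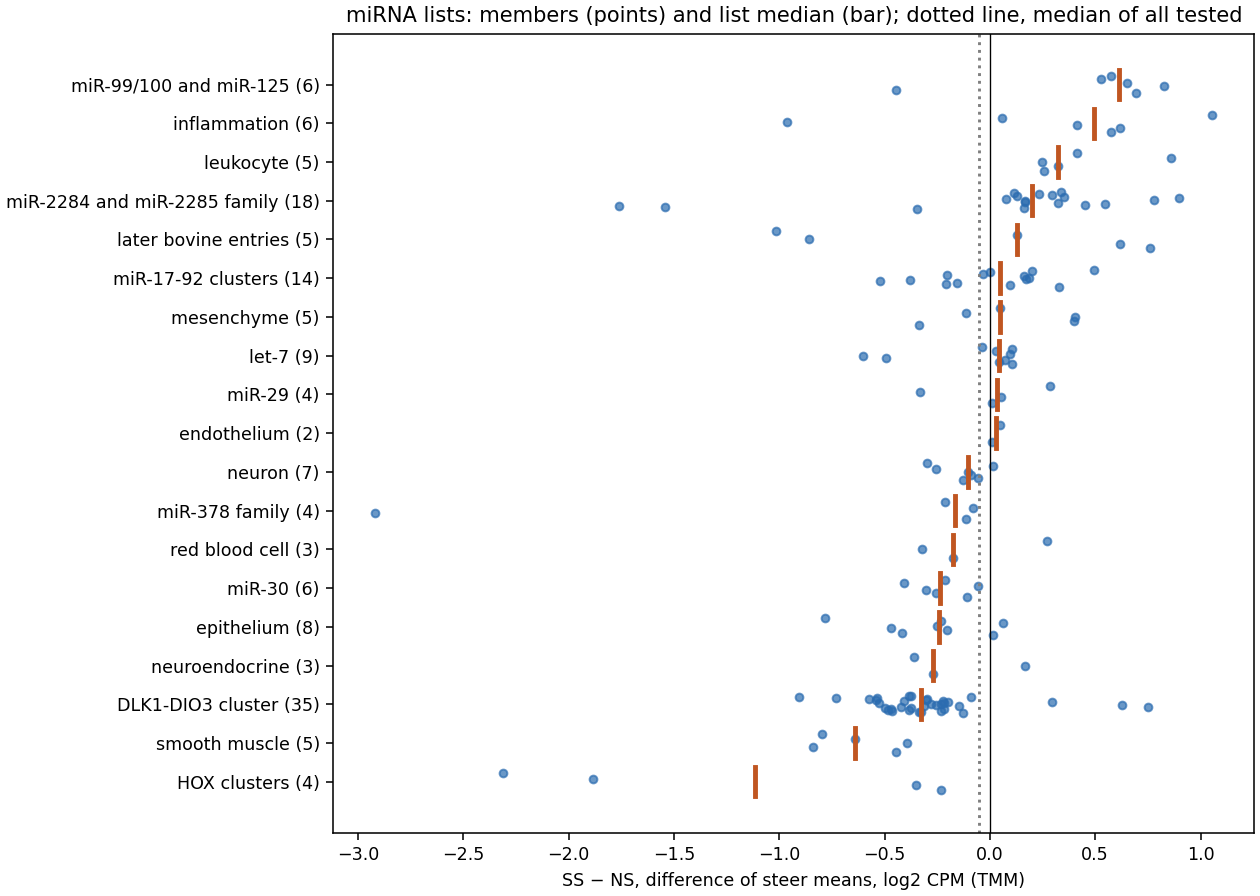
Difference between SS and NS (x axis, log2 CPM) of the tested members of each miRNA list (points), with the list median as a bar and the number of tested members in parentheses. The HOX clusters have the lowest median (-1.12) and the miR-99/100 and miR-125 list the highest (0.61), and the dotted line marks the median of all tested miRNAs (-0.05).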

How the data were processed

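Small RNA was sequenced from ground tissue of 6 intestinal regions of 10 steers, of which the 30 libraries of 3 large intestine regions were analysed here. The table the authors deposited holds raw counts, 1 column per library, of 608 miRNAs. They were made with sRNAtoolbox under its default settings from trimmed reads. The submitters' processing notes name Bowtie and edgeR without versions, and the sources used here do not give the genome build or miRBase release. Reads carried no molecular identifiers, so limits on counts cover counting error only. All 60 pairs of libraries of a group were further apart than sampling noise allows (chi-square divided by its degrees of freedom, 59.8 or more).

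From the counts, TMM factors (0.518 to 2.31) and log2 CPM with a prior count of 2 were computed with edgeR 4.0.16 in R 4.3.3 and averaged over the 3 regions of a steer. SS and NS steers were compared with limma 3.58.1 (trended variance, Benjamini-Hochberg adjustment over 352 miRNAs, FDR of 10%). The study's own tests were made within single regions with the exact test of edgeR; here the counts summed per steer were tested with the quasi-likelihood test of edgeR, with its exact test, DESeq2 1.42.0 and limma-voom as alternatives. Libraries pair by steer, as the labels state: deviations from the group means correlated by a mean of 0.126 within a steer (22 of 30 pairs positive) and -0.012 between steers (270 pairs). Each steer counts once in the tests of steer means, of summed counts and of the large less the small intestine. Their p-values therefore measure the spread between 5 and 5 animals. The test between regions, with the steer as a block, measures the spread of libraries within steers. The edgeR fit of all 30 libraries without a block treats libraries as independent.

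Named miRNAs are those past the FDR, the 10 higher and 10 lower in SS with the smallest p, those the study names for these regions, the 5 most abundant, and from each of 20 lists the 2 most abundant members and any with an unadjusted p under 0.05. Others are named for their place in a list or in a small count, and were chosen after their values were seen. The members and lists were chosen with earlier results of these data known. The limma and edgeR tests and limma-voom with the steer as a block were tried on simulated data. DESeq2, limma-voom on summed counts and the remaining tests were not. The small intestine libraries were used only where stated, and sequences of the miRNAs are not reported here.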

Additional observations from a re-analysis of the deposited data

Results flagged for a closer look

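Steer means were checked for a steer far from the other 4 of its phenotype (Dixon's test at 95%), which chance alone gives in about 1 of 20 groups. Of 194 groups of 5 steers, 18 held such a steer. SS299 was that steer in 13 of them. Its mean was high for bta-miR-2415-3p (1.76 log2 CPM, with the nearest SS steer at 0.84), bta-miR-486 (10.6, nearest 8.56), bta-miR-126-3p (10.8, nearest 10.2), bta-miR-99b (13.7, nearest 11.9), bta-miR-30a-5p (13.1, nearest 12.4) and the mean of the miR-99/100 and miR-125 list (11.4, nearest 10.0). It was low for bta-miR-147 (1.46, nearest 4.19), bta-miR-429 (6.95, nearest 8.92), bta-miR-331-3p (4.81, nearest 5.49), bta-miR-6517 (1.36, nearest 1.94), bta-miR-2284d (-0.46, nearest -0.15), the epithelium list (9.25, nearest 11.02) and the neuron list (2.72, nearest 3.68).

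SS287 was low for bta-miR-320a (8.11 log2 CPM, nearest 8.35) and high for the mean of the miR-29 list (6.82, nearest 6.36). SS274 was low for bta-miR-495 (0.55, nearest 1.31). Among NS steers, NS242 was low for bta-miR-145 (9.26, nearest 11.1) and NS165 for bta-miR-196b (6.10, nearest 8.72).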

How the results depend on the processing

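For the averaged levels, 0 miRNAs passed in the reported fit, 3 with the library total alone, 7 without the descending colon, 2 without the NS108 descending colon library, and 0 to 3 when each steer was left out (3 without NS745). With all 30 libraries in 1 edgeR fit and no replicate block, which treats the 3 libraries of a steer as independent, 13 passed; limma-voom with the steer as replicate block called 0 (smallest adjusted p = 0.104). For summed counts, 1 miRNA passed in the reported fit, 6 with the exact test, 6 with DESeq2, 0 with limma-voom, 2 without the NS108 descending colon library, 0 to 2 when each steer was left out, 0 without the 6 libraries low in bta-miR-196b and 0 without the 7; the last 2 settings were chosen after seeing the data. The 7 miRNAs called on averaged levels without the descending colon did not pass there without the cecum or without the spiral colon. The causes of these changes were not tested. The test between regions called 0 in all 12 alternatives, including no replicate block (smallest adjusted p = 0.300), and that of the large less the small intestine 0 in all 11.

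The difference of bta-miR-451 (-0.18) reversed to 0.0356 with the library total, 0.0616 with edgeR on 30 libraries, 0.50 without the spiral colon, 0.68 without the 6 libraries and 0.10 without NS108 or SS294 (-0.44 to 0.10 when each steer was left out); the cause was not tested. Of 2419 values of named miRNAs under alternatives, 2346 kept their direction and side of the threshold, or moved by less than 1 SD. A difference that kept its sign and still failed the FDR could count as kept whatever its size. Bta-miR-212 was so counted at 0.00250 on the averaged levels without the 7 libraries that stood apart. The count therefore does not measure how stable the differences were. Low levels limit bta-miR-2284j and bta-miR-2284d most: they rest on 0 to 8 reads per SS steer, and with counts thinned to the smallest library no miRNA passed on the averaged levels (smallest adjusted p = 0.304).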
